A study of Homo sapiens with 10 samples.

Results

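OVCAR-3 cells held for 24 h inside a silica gel were compared with the OVCAR-3 cells labelled Control. The comparison used the 2 Day1 libraries (24 h in gel) and the 2 Control libraries, 4 of the 10 libraries of the series, and 15167 of 58222 genes. Those genes had at least 1 TPM (transcript abundance scaled for length and library) in at least 2 of the 10 libraries. OVCAR-3 is an established ovarian adenocarcinoma cell line, and every group was grown from it in RPMI medium with fetal bovine serum. The other groups, which entered the same model to estimate the spread, were cells held for 3 days in gel (Day3), cells that outlived 3 days in gel and then recovered for 2 weeks (Extracted), and cells that outlived 24 h of 0.5 uM cisplatin and then recovered for 2 weeks (Treated). Each group had 2 biological replicates of the 1 cell line, and all libraries were made from total RNA. The labels give neither the composition of the gel nor a control for its chemistry.

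Cells meet a shortage of amino acids, misfolded protein in the endoplasmic reticulum or failing mitochondria with the integrated stress response, in which kinases phosphorylate the initiation factor eIF2, general translation slows and the transcription factor ATF4 is made. ATF4 and its partners then switch on genes for amino-acid supply, tRNA charging and feedback. NF-kB and the interferon-activated factors form separate stress pathways that raise chemokines and antiviral genes. Cells that lose their grip on a stiff surface are known to lower genes of the contractile actin cytoskeleton.

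The libraries carried the epithelial ovarian markers of the line. KRT8, a simple epithelial keratin, stood at 1350 and 1420 TPM in Control and 1503 and 1750 TPM on Day1, EPCAM, an epithelial adhesion protein, at 347 and 349.6 TPM in Control and 476 and 427 TPM on Day1, and PAX8, a Müllerian lineage factor, at 416 and 500.5 TPM in Control and 323 and 401 TPM on Day1. None of these 3 was called different on the TPM as deposited. Of all 19 tested markers of this list 3 were called higher (WFDC2, CLDN4 and MUC1). SOX17, another Müllerian lineage factor, was the 1 called lower. Over all tested genes the shares were 14.4% and 6.28%. With the mitochondrial (MT-) genes removed 2 of the markers were higher and 4 lower. Summed over 11 leukocyte markers the libraries held 2.58 to 6.91 TPM, over 10 fibroblast markers 10.6 to 16.0 TPM, and over 7 endothelial markers 6.35 to 11.3 TPM, with 0 of 7 tested members called; with the MT- genes removed, as described below, 2 fibroblast markers and 1 endothelial marker were lower, and their part in the results was not tested. CD3D, CD3E, CSF1R, NKG7, TYROBP and DCN were listed at 0 in all 4 libraries. Replicates of a group correlated at r = 0.988 (Control) and r = 0.983 (Day1) across genes, which are not independent. The 2 Day1 libraries differed in level: replicate 1 was above replicate 2 for 162 of the 225 genes that rose at least 2-fold, against 60.4% of all tested genes. Among the 236 genes that fell at least 2-fold it was above for 100. The median log2 difference, replicate 1 minus replicate 2, was 0.276 for the risen genes and -0.027 for the fallen. What set the 2 libraries apart was not tested.

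Gene levels were compared as log2(TPM + 1), and each difference is Day1 minus Control with its standard error (SE) from a limma model of all 10 libraries. A gene was called at an adjusted p under 0.05. Pairs of TPM values are replicates 1 and 2, Control before Day1, and every ± is an SE. On the TPM as deposited, 3132 of 15167 genes were called, 20.7%, of which 2180 were higher and 952 lower on Day1, 14.4% and 6.28% of all genes tested. At least 2-fold changes were called for 225 genes upward and 236 downward, 1.48% and 1.56% (3.04% together). Both Day1 libraries lay above both Control libraries for 42.1% of all genes and below both for 20.7%. Transcripts of the mitochondrial genome took 17.0% and 16.1% of all TPM in the Control libraries and 2.37% and 4.01% in the Day1 libraries, and removing them moved the split. With the mitochondrial (MT-) genes removed and the rest rescaled, 2530 genes were called, 730 higher and 1800 lower, 4.82% and 11.9% of 15152 genes (16.7% together), and 3.56% changed at least 2-fold, 0.944% upward and 2.62% downward. The share of calls that were higher thus went from 69.6% to 28.9%, and the median difference over all genes from 0.12 to -0.07. Both scales called 730 genes higher and 937 lower, and 0 genes were called in opposite directions. Another 1450 genes were higher on the deposited scale alone, and a further 863 were lower only with the MT- genes removed. Counts per list are therefore given on both scales. They are to be read beside the shares of all genes, 14.4% higher and 6.28% lower as deposited. With the MT- genes removed those shares were 4.82% and 11.9%.

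**Figure D1:**
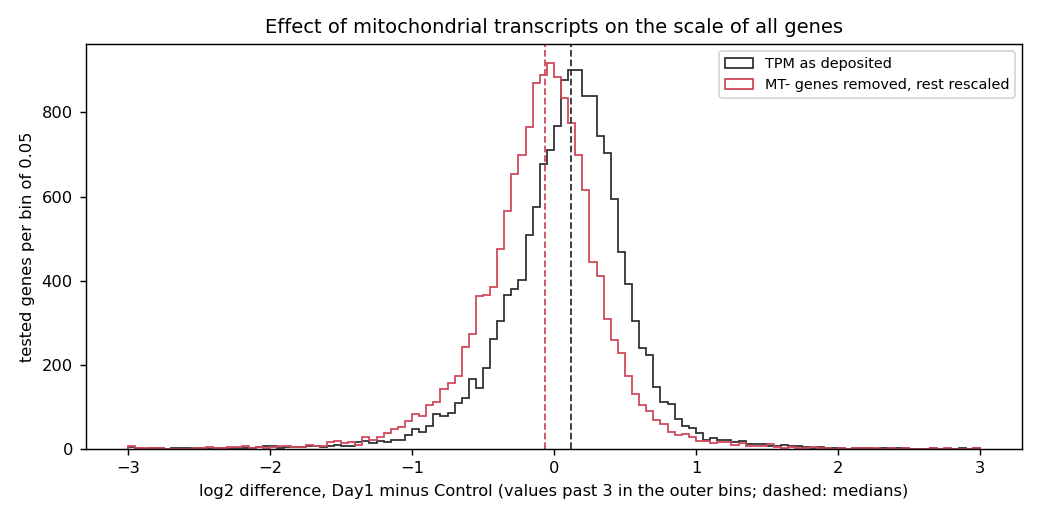
Distribution of the log2 difference, Day1 minus Control, over all tested genes (x axis: log2 difference; y axis: genes per bin), on the TPM as deposited (black) and with the MT- genes removed (red), with dashed lines at the medians and values past 3 in the outer bins. The whole distribution moves to the left on removal, with the median going from 0.12 to -0.07.

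The calls leaned on the replicates unevenly. Leaving out Control 1, Control 2, Day1 1 or Day1 2 gave 1040, 965, 1515 and 2996 calls. In all 4 of these fits 680 genes kept their call, 411 higher and 269 lower, and among the at least 2-fold changes 153 of 225 and 169 of 236 did. Counts given for a list with libraries left out are those without Control 1, Control 2, Day1 1 and Day1 2, in that order, and "kept" means called in the same direction in all 4. Named genes were kept unless stated. In bulk RNA, fewer cells expressing a gene and less RNA of it per cell cannot be told apart.

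Among the 12 genes named for the largest rise were 3 of the integrated stress response (ATF3, DDIT3 and DDIT4), 2 chemokines (CXCL8 and CXCL2), 2 interferon targets (IFIT1 and IFI6) and 1 clock gene (NR1D1), beside CALCB, SERPINE2, FOSL1 and LAMP3. ATF3 (ENSG00000162772, chr1:212565334-212620777, GRCh38, plus strand), a stress-induced repressor of the ATF/CREB family, stood at 13.6 and 14.1 TPM in Control and 219 and 143 TPM on Day1, a log2 difference of 3.58 ± 0.20 (adjusted p = 2.09e-05). Both Day1 libraries lay above every other library of the series, and the Day3 libraries came next at 56.6 and 59.9 TPM. CALCB, which encodes the neuropeptide beta-CGRP, went from 13.3 and 11.6 to 119 and 94.8 TPM, a difference of 2.99 ± 0.14 (adjusted p = 1.25e-05). The remaining groups stayed near Control, at 14.9 and 17.2 TPM (Day3), 11.6 and 11.7 TPM (Extracted) and 13.7 and 11.5 TPM (Treated). LAMP3, a lysosomal membrane protein induced by stress and interferon, was at 5.42 and 6.13 TPM in Control and 49.9 and 21.7 TPM on Day1, a difference of 2.33 ± 0.31 (adjusted p = 0.00143), and its 2 Day1 values were further apart than those of the other libraries. SERPINE2, a secreted inhibitor of thrombin and plasminogen activators, rose from 9.39 and 7.3 to 66.9 and 38.8 TPM by 2.49 ± 0.25. Over the 12 genes named for the largest rise, pseudogenes left aside, the differences ran from 2.14 (DDIT4) to 3.58 (ATF3) as deposited and from 1.94 (DDIT4) to 3.39 (ATF3) with the MT- genes removed. Of all 225 genes that rose at least 2-fold, 148 had both Day1 libraries as the highest of the 10 (15.9% of all genes did), and 76 were also called above Day3 in the test of Day1 against Day3, which called 2.35% of all genes. These genes were picked on the same Day1 libraries, so nothing is read from the distance to the share of all genes. Of the 236 that fell at least 2-fold, 130 had both Day1 libraries as the lowest of the 10 (4.21% of all genes did). Of these 236, 34 were also called below Day3. They too were picked on the same Day1 libraries, so nothing is read from these counts either.

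**Figure D2:**
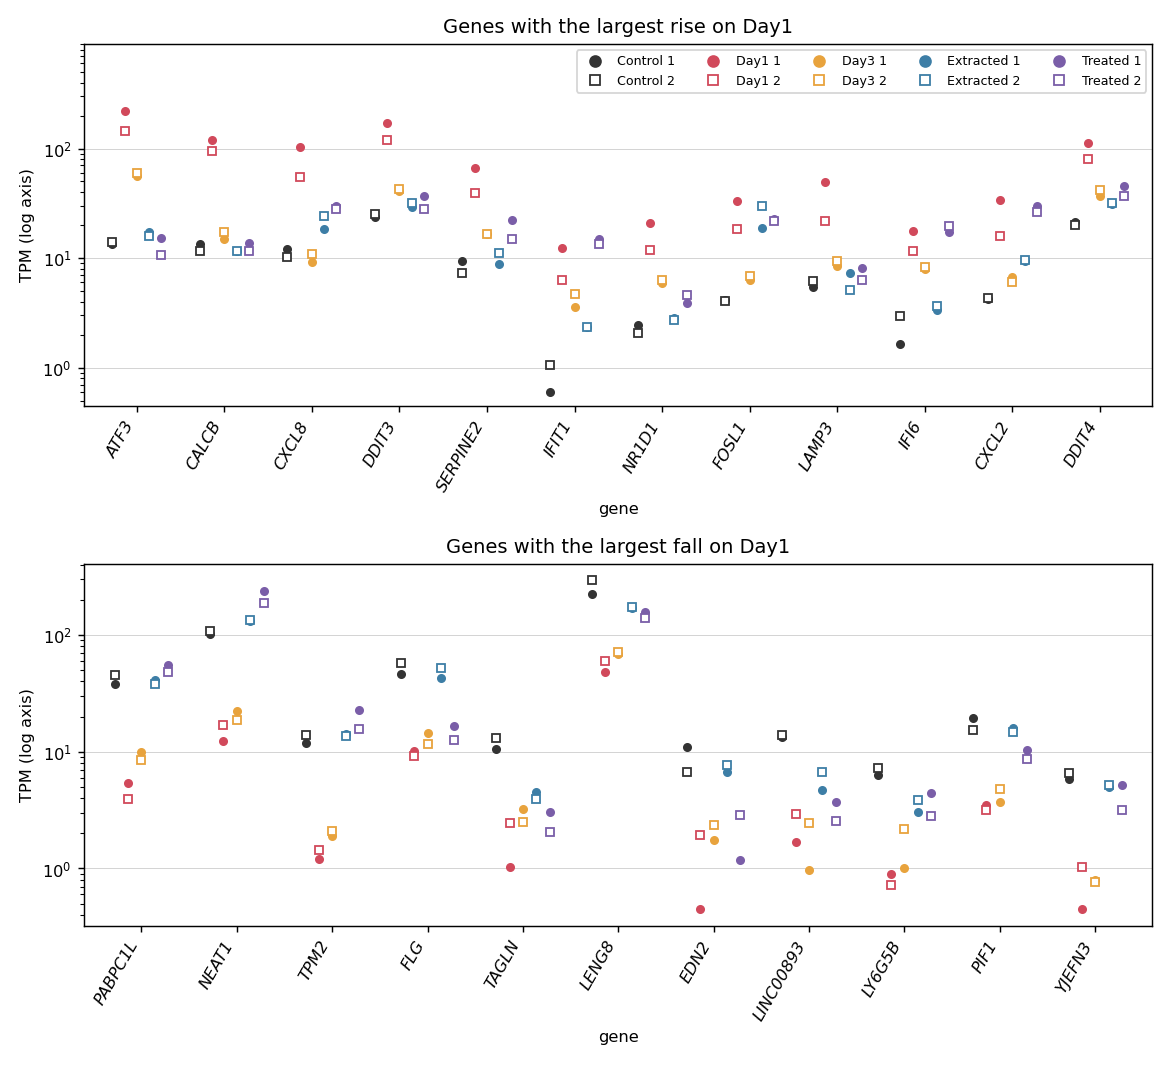
TPM (log axis) of the genes with the largest rise (upper panel) and the largest fall (lower panel) in each of the 10 libraries; filled circles are replicate 1 and open squares replicate 2 of each group. ATF3 reaches 219 and 143 TPM on Day1 against 13.6 and 14.1 in Control, and PABPC1L falls from 38.2 and 45.2 to 5.38 and 3.96 TPM.

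The integrated stress response had 14 of 19 tested members higher and 0 lower, with a median difference of 1.05 against 0.12 for all genes. The list, like the others, was written with earlier results of these data known, so its count is no independent evidence. With the MT- genes removed 13 were higher (median 0.93), and the 4 left-out counts were 11, 13, 13 and 15, with 11 kept. None of the 4 eIF2 kinase genes was called at the mRNA level, whereas 6 of 7 transcription factors and 6 of 6 feedback genes were. With the MT- genes removed these counts were 0, 5 and 6. Kinase activity was not measured. ATF4, the central factor, whose own mRNA is mainly controlled at translation, stood at 347 and 334 TPM in Control and 638 and 556 TPM on Day1, a difference of 0.81 ± 0.10 (adjusted p = 0.00117). DDIT3, which encodes CHOP, a death-promoting partner of ATF4, went from 23.7 and 25.5 to 171 and 119 TPM (2.49 ± 0.17, adjusted p = 7.78e-05). CEBPG, a C/EBP-family partner of ATF4, went from 40.1 and 39.8 to 126 and 90.6 TPM (1.40 ± 0.16), with Day3 at 57.5 and 53.8 TPM. The Day1 libraries were the highest of the series for both.

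Feedback genes of the same pathway rose together. DDIT4, an inhibitor of mTORC1, stood at 21.3 and 20.2 TPM in Control and 111 and 80.7 TPM on Day1 (2.14 ± 0.16, adjusted p = 8.86e-05). SESN2, a leucine sensor that also restrains mTORC1, was at 5.54 and 5.28 TPM in Control and 26.4 and 19.6 TPM on Day1 (1.89 ± 0.15, adjusted p = 0.000122). TRIB3, a pseudokinase that dampens ATF4 and AKT, went from 16.8 and 16.3 to 73.1 and 51.7 TPM (1.83 ± 0.15). PPP1R15A, the stress-induced subunit of the eIF2 phosphatase (GADD34), went from 24 and 24 to 94 and 62.6 TPM (1.64 ± 0.17), while its constitutive relative PPP1R15B moved from 28.1 and 28.5 to 54.2 and 38.6 TPM, a call lost without either Control library. CHAC1, which degrades glutathione, rose from 20.7 and 21.6 to 58.5 and 49.2 TPM (1.30 ± 0.12) and was back at 21.1 and 20.4 TPM on Day3. GDF15, a secreted stress cytokine, went from 2.19 and 2.56 to 15 and 6.99 TPM (1.75 ± 0.26), and its Day1 replicates lay apart. In the test of Day1 against Day3, 10 of the 14 called members were higher on Day1 and 0 higher on Day3. Those members were picked on the same Day1 libraries, so nothing is read from that count. Replicate 1 of Day1 was above replicate 2 in 13 of the 14, and the same library had the lower share of mitochondrial transcripts; the part of that difference in the calls was not tested.

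Promoter sequences are shown for genes of this axis because ATF4 and the C/EBP factors bind a composite element whose core was searched as TGATGNAA on both strands of RefSeq promoters (GRCh38.p14, 250 bases before to 50 after the start). The core was in 1003 of 27305 promoters, 3.67%. It was present for 3 of the 13 called stress-response genes with a promoter in the table and for 0 of 4 not called. Among cytosolic aminoacyl-tRNA synthetase genes it was in 5 of 8 called higher and in 1 of 8 that were not. For amino-acid transporters these counts were 2 of 6 and 2 of 14. For enzymes of serine, proline and one-carbon metabolism they were 2 of 5 and 1 of 7. Differences between called and other genes were not tested. The windows below are written 5′ to 3′ on the gene's strand, with the core or its reverse complement in capitals. They were picked among called genes that hold the core. A match is a description of letters and not evidence of binding.
ATF3: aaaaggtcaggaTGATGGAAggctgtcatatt
CHAC1: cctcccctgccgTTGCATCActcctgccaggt
ASNS: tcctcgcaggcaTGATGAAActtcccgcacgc
AARS: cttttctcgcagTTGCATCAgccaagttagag
The ATF3 window lies at chr1:212565204-212565235 (191 bases before the start), CHAC1 at chr15:40953250-40953281 (209), ASNS at chr7:97872457-97872488 (68) and AARS at chr16:70289674-70289705 (187), all in GRCh38. AARS, the alanyl enzyme, stood at 37.7 and 39.1 TPM in Control and 59.2 and 46.9 TPM on Day1, a call lost without Control 1, Control 2 or Day1 1.

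Genes for amino-acid supply rose in part. Of 20 enzymes of serine, proline and one-carbon metabolism, 8 were higher and 1 lower (6 and 4 with the MT- genes removed; 6, 5, 5 and 10 higher with libraries left out). ASNS, asparagine synthetase, stood at 100.1 and 90.2 TPM in Control and 294 and 210.2 TPM on Day1, a difference of 1.38 ± 0.15 (adjusted p = 0.0005). CTH, which makes cysteine from cystathionine, went from 5.26 and 4.92 to 17.2 and 10.8 TPM (1.27 ± 0.20), and MTHFD2, the mitochondrial folate enzyme, from 139 and 141 to 317 and 245 TPM (0.98 ± 0.12). PSAT1 and PSPH, which complete serine synthesis, differed by 0.87 ± 0.12 and 0.79 ± 0.12. ALDH1L2, a mitochondrial folate dehydrogenase, differed by 0.97 ± 0.21, a call lost without Control 2 or without Day1 1. TYMS, thymidylate synthase of the replication-linked branch, was the 1 member lower, at 173 and 163 TPM in Control and 123 and 129 TPM on Day1, and it lost its call without Control 1, Control 2 or Day1 1. Among 24 amino-acid transporters 7 were higher and 1 lower (4 and 3 with the MT- genes removed; 3, 3, 3 and 11 higher with libraries left out). SLC6A9, a glycine transporter, rose from 10.8 and 10.8 to 34.2 and 23.4 TPM (1.31 ± 0.18, adjusted p = 0.00153). SLC3A2, the shared heavy chain of several exchangers, rose from 292 and 285 to 653 and 448 TPM (0.91 ± 0.15). SLC7A8, a light chain for neutral amino acids, fell from 11.1 and 10.1 to 4.64 and 3.07 TPM, a difference of -1.27 ± 0.18 (adjusted p = 0.00191). SLC43A1, another neutral amino-acid carrier, was at 0.805 and 0.789 TPM in Control and 3.96 and 2 TPM on Day1, near the floor of 1 TPM, and its call was lost without Control 1, Control 2 or Day1 1.

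Of 20 cytosolic aminoacyl-tRNA synthetase genes 9 were higher and 1 lower (4 and 2 with the MT- genes removed). Cytosolic synthetase calls were 3, 3, 3 and 11 higher and 0 lower each time with libraries left out, and 6 to 14 higher without 1 library of the other groups. Of the 17 mitochondrial ones 1 was higher and 1 lower (0 and 3 with the MT- genes removed). Mitochondrial synthetase calls were 0, 0, 0 and 0 higher and 1, 1, 1 and 2 lower with libraries left out, and 0 to 1 higher without 1 library of the other groups. The difference between the lists was not tested. SARS, the seryl enzyme, went from 137 and 139 to 312 and 238 TPM (0.98 ± 0.15, adjusted p = 0.00281), CARS, the cysteinyl enzyme, from 45 and 42.3 to 90 and 69.8 TPM (0.85 ± 0.15), and TARS, the threonyl enzyme, from 284 and 286 to 558 and 440.2 TPM (0.80 ± 0.15); these 3 were the ones kept. GARS, the glycyl enzyme, differed by 0.84 ± 0.18 and lost its call without Control 1, Control 2 or Day1 1. All 9 called synthetases were higher in Day1 replicate 1 than in replicate 2. In the mitochondrion SARS2 fell from 89.7 and 108 to 57 and 65.8 TPM (-0.68 ± 0.12), and PARS2, at 5.97 and 6.9 TPM in Control and 8.91 and 8.88 TPM on Day1, lost its call whichever of the 4 libraries was left out.

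Chemokines were higher in 8 of 12 tested members and lower in 0, with a median difference of 1.02. The count was 7 with the MT- genes removed and 6, 6, 7 and 8 with libraries left out. CXCL8 (interleukin-8, which attracts neutrophils) stood at 12.1 and 10.3 TPM in Control and 104 and 54.6 TPM on Day1, a difference of 2.65 ± 0.25 (adjusted p = 0.000241). On Day3 it was at 9.17 and 10.9 TPM, within the Control range or close below it. Its neighbours on chromosome 4, the neutrophil chemokines CXCL2 and CXCL3, went from 4.24 and 4.29 to 33.6 and 15.8 TPM (2.19 ± 0.26) and from 2.93 and 2.54 to 16.9 and 7.3 TPM (1.71 ± 0.30). CXCL1, the most abundant of them in Control, went from 52.6 and 48.8 to 143 and 89.7 TPM (1.14 ± 0.18). CCL20, which attracts CCR6-bearing lymphocytes, was at 3 and 1.66 TPM in Control and 13.3 and 6.16 TPM on Day1, and its call was lost without Control 2. CCL28, a mucosal chemokine, had close Day1 replicates at 22.8 and 23.3 TPM against 11.1 and 10.1 in Control, and Day3 was as high at 25.3 and 23.4 TPM. Cytokine genes proper moved less. Of 23 interleukin-type ligands, receptors and inhibitors 8 were higher and 2 lower (4 and 3 with the MT- genes removed; 2, 2, 4 and 9 higher with libraries left out), and 7 of the 8 were receptors. TNFRSF12A, the TWEAK receptor, rose from 119.7 and 123 to 256 and 194 TPM (0.87 ± 0.14). IL6ST, the shared gp130 receptor chain, was at 26 and 27.4 TPM in Control and 78 and 40 TPM on Day1 (1.04 ± 0.24), lost without either Control library, and TNFSF10, the death ligand TRAIL, at 11 and 9.42 TPM in Control and 18.9 and 19.6 TPM on Day1, lost without Control 2. IL6R, the IL6 receptor, was at 2.51 and 2.79 TPM in Control and 4.56 and 5.71 TPM on Day1, lost without Control 1. IL6 itself, the best known ligand of the family, was at 7.53 and 4.74 TPM in Control and 6.97 and 4.88 TPM on Day1, a difference of -0.03 ± 0.25 (adjusted p = 0.938), with overlapping groups.

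NF-kB genes were called higher in each role, for 3 of 5 subunits and 3 of 6 targets as well as for inhibitors. Of 20 tested members 12 were higher and 0 lower (7 with the MT- genes removed; 5, 5, 5 and 14 with libraries left out), and 6 of the 9 inhibitors were among them. NFKBIZ, an inducible nuclear IkB protein, went from 12.1 and 12 to 35.1 and 22.7 TPM (1.17 ± 0.18, adjusted p = 0.00253). ICAM1, an adhesion receptor for leukocytes, went from 7.47 and 7.05 to 18.6 and 12.9 TPM (1.00 ± 0.16), and NFKBIA, the main cytoplasmic inhibitor, from 232 and 238 to 435 and 364 TPM (0.76 ± 0.13). CYLD, a deubiquitinase that restrains the pathway, was at 3.28 and 3.28 TPM in Control and 7.74 and 5.53 TPM on Day1, lost without Control 1, Control 2 or Day1 1. Every one of the 12 was higher in Day1 replicate 1 than in replicate 2. The NF-kB core searched as GGAATTTCC on both strands was in 129 of 27305 RefSeq promoters, 0.472%. It was in 5 of the 7 called chemokine genes with a promoter in the table and in 4 of the 11 called NF-kB genes. Among members not called higher it was in 1 of 2 chemokine genes and 1 of 7 NF-kB genes. Windows are shown for CXCL8, CXCL1, CXCL2, CXCL3 and NFKBIA, picked among called genes that hold the core. CCL20, which changed more than CXCL1, is not among them. The core or its reverse complement is in capitals. CXCL1, CXCL2 and CXCL3 are close paralogs.
CXCL8: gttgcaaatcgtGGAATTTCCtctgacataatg
CXCL1: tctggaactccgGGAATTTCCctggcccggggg
CXCL2: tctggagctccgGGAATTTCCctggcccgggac
CXCL3: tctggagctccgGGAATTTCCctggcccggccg
NFKBIA: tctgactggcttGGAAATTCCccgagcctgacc
These lie at chr4:73740466-73740498, chr4:73869303-73869335, chr4:74099252-74099284, chr4:74038747-74038779 and chr14:35404810-35404842, between 77 and 91 bases before the start.

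Interferon-pathway genes were higher in 32 of 56 tested members and lower in 1, with a median of 0.52. With the MT- genes removed 24 were higher and 3 lower, and with libraries left out 18, 18, 23 and 34 were higher, 16 of them kept. The 5 interferon ligand genes listed were under the filter and not tested. By role, 20 of 33 targets, 7 of 11 signalling genes, 3 of 6 receptors and 2 of 6 sensors were called higher. With the MT- genes removed 19 targets, 4 signalling genes, 0 receptors and 1 sensor were higher. The 3 lower members on that scale were all signalling genes. IFIT1, an antiviral protein that binds uncapped RNA, stood at 0.599 and 1.06 TPM in Control and 12.4 and 6.29 TPM on Day1 (2.44 ± 0.26, adjusted p = 0.000422). The Treated libraries stood at 14.8 and 13.3 TPM, above both Day1 libraries. IFI6, a mitochondrial antiviral protein, went from 1.64 and 2.96 to 17.7 and 11.6 TPM (2.25 ± 0.22), IFITM1, a membrane protein that blocks viral entry, from 2.55 and 3.78 to 20 and 12.5 TPM (2.03 ± 0.22), and IFI44L from 2.03 and 3.14 to 16.8 and 9.53 TPM (1.95 ± 0.32). MX1, a dynamin-like antiviral GTPase, went from 3.54 and 5.53 to 26 and 15.2 TPM (1.94 ± 0.24). Among the signalling genes IRF9, the DNA-binding part of the ISGF3 complex, rose from 11.2 and 17.9 to 51.2 and 49.7 TPM (1.76 ± 0.21), with close Day1 replicates. Day3 levels differed between targets. IFITM3 was at 354 and 386 TPM on Day1 and 357 and 415 TPM on Day3 against 197 and 195 in Control. IFIT1 and IFI6 were below their Day1 levels on Day3, at 3.54 and 4.73 TPM and at 7.92 and 8.2 TPM. In the test of Day1 against Day3, 1 of the 32 genes (DDX58, the RNA sensor RIG-I, whose call against Control was lost without Control 1, Control 2 or Day1 1) was called higher on Day1. Called or not, 29 of the 32 were higher on Day1 than on Day3. Those 32 were picked on the same Day1 libraries, so nothing is read from these counts. IFITM family members are near copies of each other, so reads may have been split between them.

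Promoters of interferon targets are shown because ISGF3 binds repeats whose core was searched on both strands as GAAA, any 2 bases, GAAA (the capitals below, or their reverse complement). It was in 996 of 27305 promoters, 3.65%, in 14 of 17 targets called higher and in 6 of 10 targets not called higher, so most listed targets hold it whether or not they were called.
IFIT1: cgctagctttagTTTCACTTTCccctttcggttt
ISG15: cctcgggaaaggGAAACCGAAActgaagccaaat
IFI6: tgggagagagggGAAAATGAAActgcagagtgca
They lie at chr10:89392495-89392528, chr1:1013378-1013411 and chr1:27672286-27672319; ISG15, a ubiquitin-like modifier, went from 19.2 and 18.8 to 39.1 and 33.8 TPM (0.90 ± 0.12). Antigen presentation by MHC class I, which interferon is known to raise, had 8 of 18 members higher and 2 lower (7 and 2 with the MT- genes removed; 5, 5, 6 and 9 higher with libraries left out). B2M, the invariant light chain, rose from 1214 and 1170 to 2500 and 2193 TPM (0.97 ± 0.12, adjusted p = 0.000878), HLA-E from 52.6 and 55.2 to 103 and 88.8 TPM (0.81 ± 0.10), and HLA-B from 52.4 and 69.8 to 140.5 and 107 TPM (1.01 ± 0.19), the last lost without Control 1. PSMB9, an immunoproteasome subunit, was at 2.39 and 1.84 TPM in Control and 3.82 and 4.86 TPM on Day1, lost without Control 2. The HLA genes are close paralogs and polymorphic, which makes their separate levels uncertain. CALR and PDIA3, chaperones of the peptide-loading complex, were the 2 lower members, and both calls were lost without Control 1, Control 2 or Day1 1.

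Growth-factor feedback rose for some members. Among 13 AP-1 factors 9 were higher and 0 lower (4 with the MT- genes removed; 2, 4, 4 and 8 with libraries left out). FOSL1, a Fos-family factor downstream of ERK, went from 4.14 and 4.08 to 33.2 and 18.3 TPM (2.33 ± 0.26, adjusted p = 0.000479), and MAFF, a small Maf protein, from 4.66 and 5.46 to 24.3 and 15.6 TPM (1.76 ± 0.18). FOSB was at 0.443 and 0.615 TPM in Control and 2.8 and 1.93 TPM on Day1, lost without Control 1, Control 2 or Day1 1, as was ATF2, at 27.2 and 24 TPM in Control and 53.2 and 35.6 TPM on Day1. MAP kinase feedback genes were higher in 10 of 22 and lower in 0 (4 and 1 with the MT- genes removed; 3, 3, 2 and 13 with libraries left out), and 7 of the 10 were phosphatases. DUSP10, which inactivates p38 and JNK, rose from 10.1 and 11.5 to 23.7 and 25.6 TPM (1.12 ± 0.12, adjusted p = 0.000434) and was at 9.81 and 9.2 TPM on Day3. The listed targets MYEOV (0.99 ± 0.26, lost without Control 1 or Day1 1) and ETV5 (0.88 ± 0.24, lost without Control 1, Control 2 or Day1 1) and the phosphatase DUSP16 (0.78 ± 0.15, lost without Control 2 or Day1 1) were less stable. In the EGF receptor family 3 of 19 were higher and 1 lower, beside 14.4% and 6.28% of all genes (2 and 4 with the MT- genes removed). EGF family calls were 1, 2, 2 and 3 higher and 0, 0, 1 and 3 lower with libraries left out. AREG, the ligand amphiregulin, went from 5.62 and 5.25 to 24.3 and 14.9 TPM (1.64 ± 0.23, adjusted p = 0.00186), while EGFR was at 23.9 and 25 TPM in Control and 19.9 and 12.8 TPM on Day1, a lower call lost without Control 1, Control 2 or Day1 2. ADAM17, the sheddase that frees such ligands, was at 26.1 and 26.4 TPM in Control and 50.5 and 38.4 TPM on Day1 (lost without Control 1) and the feedback inhibitor ERRFI1 at 56.3 and 58 TPM in Control and 92.6 and 68.9 TPM on Day1 (lost without Control 1, Control 2 or Day1 1). MYC, a growth factor-responsive regulator, was at 35 and 32.2 TPM in Control and 34.4 and 28.8 TPM on Day1, a difference of -0.09 ± 0.12 (adjusted p = 0.627). With CALCB and 2 other peptide ligands, 3 of 6 tested genes of the calcitonin family were higher and 0 lower (2 and 0 with the MT- genes removed). Calcitonin family calls were 2, 2, 2 and 4 higher and 0 lower each time with libraries left out. ADM2 was at 1.95 and 1.49 TPM in Control and 7.69 and 5.53 TPM on Day1 (1.48 ± 0.18), and ADM, adrenomedullin, was at 4.5 and 4.3 TPM in Control and 8.51 and 6.55 TPM on Day1, lost without Control 1, Control 2 or Day1 1.

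Clock genes were higher in 13 of 17 tested members and lower in 0, with a median of 0.81. The count was 10 with the MT- genes removed (median 0.62) and 7, 10, 9 and 11 with libraries left out, with 7 kept. In the clock, CLOCK and ARNTL (BMAL1) activate genes such as PER, CRY and NR1D1, whose products shut them off again, so activators and repressors normally peak at different times of day. Of the listed genes, 9 of 11 repressors, 2 of 4 activators and 2 of 2 output factors were called higher. NR1D1, the repressor REV-ERB alpha, stood at 2.43 and 2.07 TPM in Control and 21 and 11.9 TPM on Day1 (2.37 ± 0.22, adjusted p = 0.000236), and ARNTL, its target, at 12.9 and 7.85 TPM in Control and 36.2 and 27.6 TPM on Day1 (1.55 ± 0.25, adjusted p = 0.00325). RORA, which competes with NR1D1 for the same sites, was at 2.8 and 4.31 TPM in Control and 14.2 and 7.32 TPM on Day1 (1.32 ± 0.26), lost without Control 1, and the output factor TEF at 4.76 and 8.39 TPM in Control and 16.4 and 16.9 TPM on Day1, lost without Control 1 or either Day1 library. CIART, NR1D2, NFIL3, PER3 and BHLHE40, all repressors, differed by 1.04 ± 0.14, 1.04 ± 0.18, 0.97 ± 0.15, 0.94 ± 0.15 and 0.70 ± 0.10. In contrast CLOCK, CRY1, CRY2 and NPAS2 were not called. Hours of harvest are not given in the labels, so time of day and 24 h in gel cannot be told apart. In the test of Day1 against Day3, 4 of the 13 were higher on Day1 and 0 higher on Day3. Those 13 were picked on the same Day1 libraries, so nothing is read from that count.

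**Figure D3:**
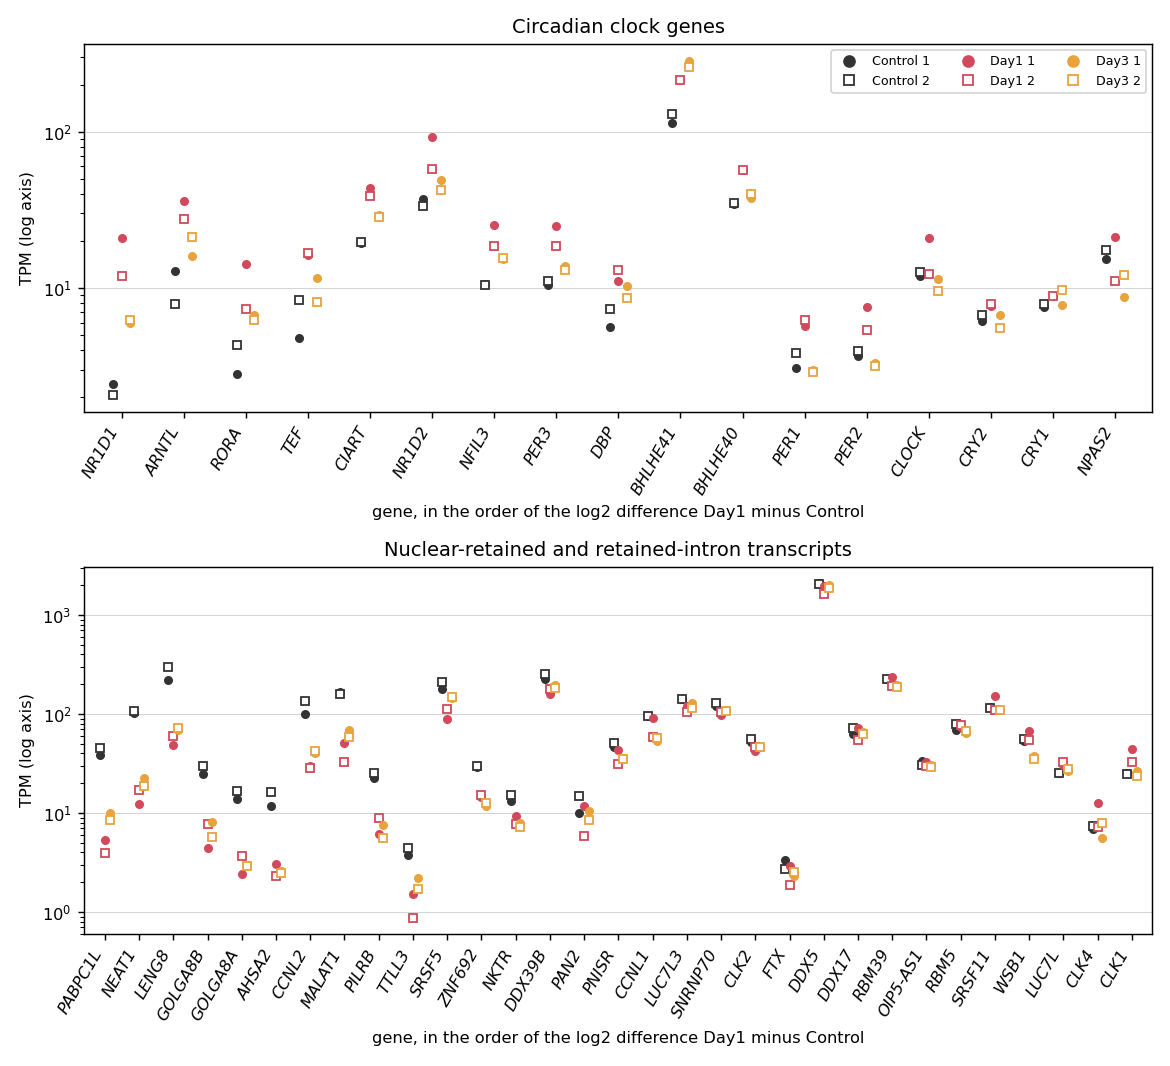
TPM (log axis) of the tested clock genes (upper panel) and of nuclear-retained and retained-intron transcripts (lower panel) in the Control, Day1 and Day3 libraries; each marker is 1 library. NR1D1 goes from 2.43 and 2.07 TPM in Control to 21.0 and 11.9 on Day1, and LENG8 from 223 and 295 to 48.3 and 60.3.

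One list with many falls held transcripts known for nuclear retention. Of 31 tested nuclear-retained lncRNAs and mRNAs known for retained introns, 14 were lower and 1 higher, with a median of -0.39. With the MT- genes removed 18 were lower and 0 higher, and with libraries left out 13, 11, 13 and 13 were lower, 11 of them kept. The list was drawn up with some of these falls known and so is no independent evidence of their direction. PABPC1L, a poly(A)-binding protein gene on the retained-intron part of the list, stood at 38.2 and 45.2 TPM in Control and 5.38 and 3.96 TPM on Day1 (-2.92 ± 0.15, adjusted p = 1.39e-05). NEAT1, the scaffold RNA of paraspeckles, fell from 102 and 108 to 12.4 and 16.9 TPM (-2.77 ± 0.16, adjusted p = 2.3e-05), and MALAT1, a nuclear speckle RNA, from 165 and 159.5 to 50.7 and 32.7 TPM (-1.97 ± 0.25, adjusted p = 0.00117). For all 3 the Day1 values lay far below Control, and the Day3 values lay between them; PABPC1L alone of the 3 was called lower on Day1 than on Day3. LENG8 fell from 223 and 295 to 48.3 and 60.3 TPM (-2.23 ± 0.14), GOLGA8B from 24.8 and 30.2 to 4.38 and 7.67 TPM (-2.05 ± 0.22) and CCNL2, a cyclin of splicing speckles, from 101 and 136 to 29.7 and 28.3 TPM (-1.98 ± 0.15). GOLGA8A and GOLGA8B are near copies, so their separate levels are uncertain. Not every such gene fell: CLK1, a kinase of splicing factors with a well-known retained intron, was at 25.6 and 24.5 TPM in Control and 44.2 and 32.4 TPM on Day1, the 1 higher call, lost without Control 1, Control 2 or Day1 1. Gene-level TPM do not separate spliced from intron-holding transcripts, so a fall of the gene does not show which form fell.

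Hosts of small nucleolar RNAs, whose spliced exons are known to be degraded when translated, went both ways: 5 of 16 were higher and 4 lower (3 and 4 with the MT- genes removed; 2, 2, 2 and 6 higher and 3, 2, 3 and 3 lower with libraries left out). ZFAS1 rose from 96.6 and 84.6 to 286 and 217 TPM (1.45 ± 0.15, adjusted p = 0.000323) and EPB41L4A-AS1 from 18.1 and 16.2 to 43 and 38.2 TPM (1.20 ± 0.14). SNHG12 fell from 16.5 and 18.6 to 6.49 and 5.78 TPM (-1.38 ± 0.18) and SNHG1 from 189 and 205 to 129 and 102 TPM (-0.77 ± 0.11). Whether the counting used strand is not given in the sources used here, so reads of antisense hosts and their partner genes may be mixed. Outside the lists, FLG, the epidermal protein filaggrin, fell from 46.5 and 57.2 to 10.2 and 9.22 TPM (-2.29 ± 0.17, adjusted p = 0.000101) and PIF1, a DNA helicase, from 19.4 and 15.3 to 3.53 and 3.16 TPM (-2.07 ± 0.16). EDN2, the vasoactive peptide endothelin 2, stood at 10.9 and 6.76 TPM in Control and 0.447 and 1.94 TPM on Day1 (-2.22 ± 0.36). LINC00893 (-2.17 ± 0.29), LY6G5B (-2.11 ± 0.25) and YJEFN3 (-2.06 ± 0.22) were other large falls, and for LY6G5B and YJEFN3 the Day1 values were near or under 1 TPM. GABRE, a GABA receptor subunit, was also under 1 TPM on Day1, at 0.915 and 0.784 TPM against 5.93 and 5.65 in Control. In all, 3 genes went from under 1 TPM in both Control libraries to at least 5 in both Day1 libraries, and all are processed pseudogenes (TMSB4XP6, RPS29P5 and USMG5P1) listed at 0 in Control, which can share reads with their parent genes. TMSB4XP6 and RPS29P5 lost their calls without either Control or either Day1 library. USMG5P1 lost its call without Control 1, Control 2 or Day1 1. No fold is given for these 3 genes.

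Every mRNA of the mitochondrial genome fell, 13 of 13, in each fit with a library left out. MT-CO1, a cytochrome oxidase subunit, stood at 9365 and 9334 TPM in Control and 1670 and 3054 TPM on Day1 (-2.05 ± 0.23), the smallest fall of the 13. The largest was that of MT-ND6, the one mRNA read from the light strand, at 223 and 264 TPM in Control and 12.6 and 14.4 TPM on Day1 (-4.07 ± 0.19, adjusted p = 1.25e-05). Day3 levels lay between the other groups, with MT-ND6 at 39.2 and 42.5 TPM, and all 13 were called lower on Day1 than on Day3. The ribosomal RNA MT-RNR2 went from 2415 and 2405 to 628 and 816 TPM. Nuclear genes that keep this genome running had few calls: of 34 for its transcription, replication, RNA processing and decay, 2 were higher and 2 lower (2 and 3 with the MT- genes removed). Gene expression list calls were 1, 1, 1 and 4 higher and 1, 0, 1 and 1 lower with libraries left out, and 2 to 7 higher without 1 library of the other groups. TFB2M, a mitochondrial transcription factor, was at 26.2 and 23.7 TPM in Control and 43 and 36 TPM on Day1 (higher, lost without Control 2), and TWNK, its replicative helicase, at 55.7 and 61.2 TPM in Control and 105 and 81 TPM on Day1 (higher, lost without Control 1 or Day1 1). PPARGC1A and PPARGC1B, coactivators of mitochondrial biogenesis, were the 2 lower members, at differences of -0.92 ± 0.26 and -0.70 ± 0.16, the first lost whichever of the 4 libraries was left out and the second without Control 2. Mitochondrial ribosomal protein genes were higher in 18 of 78 as deposited but in 3 of 78 with the MT- genes removed, where 4 were lower; with libraries left out 2, 3, 8 and 10 were higher, and 10 to 31 without a library of the other groups. MRPS10 and MRPS18B, at 0.63 ± 0.10 and 0.58 ± 0.10, were the 2 kept, MRPL48, at 0.60 ± 0.16, lost its call without Control 1, Control 2 or Day1 1, and MRPS25, at -0.61 ± 0.11, was lower, lost without Control 2. Among 16 mitochondrial chaperones and proteases 3 were higher and 1 lower (1 and 3 with the MT- genes removed). Chaperone and protease calls were 1, 1, 1 and 5 higher and 1, 1, 1 and 1 lower with libraries left out, and 1 to 5 higher without 1 library of the other groups. GRPEL2, a co-chaperone of mitochondrial HSP70, went from 9.84 and 10 to 22.9 and 17.8 TPM (0.95 ± 0.13). SPG7, an inner-membrane protease, fell from 15.5 and 18 to 8.94 and 10.1 TPM (-0.75 ± 0.12), and YME1L1 and OMA1, its neighbours in quality control, differed by 0.40 ± 0.12 and 0.39 ± 0.11, both lost without Control 1, Control 2 or Day1 1.

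Several contractile and basement membrane genes were lower, while most members of their lists were not called. Of 35 actin-cytoskeleton genes 12 were lower and 4 higher (18 and 1 with the MT- genes removed), and with libraries left out 9, 9, 11 and 11 were lower, 8 of them kept. TPM2, a tropomyosin of stress fibres, went from 12 and 14 to 1.21 and 1.44 TPM (-2.59 ± 0.18, adjusted p = 7.78e-05), with Day3 at 1.88 and 2.1 and Extracted back at 14.3 and 13.6 TPM. TAGLN, a smooth-muscle actin-binding protein, went from 10.5 and 13 to 1.04 and 2.46 TPM (-2.25 ± 0.25), MYL9, the regulatory myosin light chain, from 54.5 and 52.3 to 18.7 and 23.4 TPM (-1.31 ± 0.13), and CALD1, caldesmon, from 201 and 185 to 79.2 and 79 TPM (-1.27 ± 0.15). ACTB, beta-actin, was at 2511 and 2399 TPM in Control and 1564 and 1841 TPM on Day1 (-0.53 ± 0.10), lost without Control 1. TAGLN2, a relative of TAGLN, rose from 572 and 553 to 767 and 852 TPM (0.52 ± 0.09).

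The basement membrane list had 8 of 28 members lower and 2 higher (14 and 1 with the MT- genes removed; 5, 3, 7 and 7 lower with libraries left out). LAMA5, a laminin chain, fell from 139 and 175 to 44.1 and 49.1 TPM (-1.72 ± 0.13, adjusted p = 8.93e-05), and the heparan sulfate proteoglycans HSPG2 (perlecan) and AGRN (agrin) fell from 16.2 and 16.8 to 5.95 and 5.22 TPM (-1.41 ± 0.12) and from 223 and 277 to 117 and 119 TPM (-1.07 ± 0.11). LAMB1 was at 94.5 and 77.7 TPM in Control and 52.5 and 33.7 TPM on Day1, lost without Control 1, Control 2 or Day1 2. In the matrix and proteolysis list the roles went apart: 5 of 10 matrix genes were lower and 1 higher, whereas 5 of 10 proteases and 4 of 7 inhibitors were higher and 0 lower; with libraries left out 7, 6, 6 and 9 of the list were higher and 5 lower each time. With the MT- genes removed the list had 7 higher and 8 lower. By role these were 1 and 6 for matrix genes, 3 and 0 for proteases, and 3 and 2 for inhibitors. FN1, fibronectin, fell from 207 and 219 to 112 and 97.1 TPM (-1.02 ± 0.12), THBS1, thrombospondin, from 45.1 and 45.6 to 21.4 and 13.7 TPM (-1.35 ± 0.22), and CTGF, a matricellular protein, from 95.1 and 93.1 to 43 and 44.3 TPM (-1.09 ± 0.11). MMP7, a matrix protease, rose from 0.0717 and 0.151 to 3.43 and 4.44 TPM (2.14 ± 0.25, adjusted p = 0.000696), a low level in Control where the difference is held down by the added 1. MMP10 rose from 5.88 and 5.91 to 16.5 and 19.7 TPM (1.46 ± 0.13), PLAT, tissue plasminogen activator, from 10.9 and 11.8 to 28.3 and 30.9 TPM (1.31 ± 0.12), and PI3, the protease inhibitor elafin, from 8.88 and 8.29 to 30.8 and 24.1 TPM (1.56 ± 0.19).

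**Figure D4:**
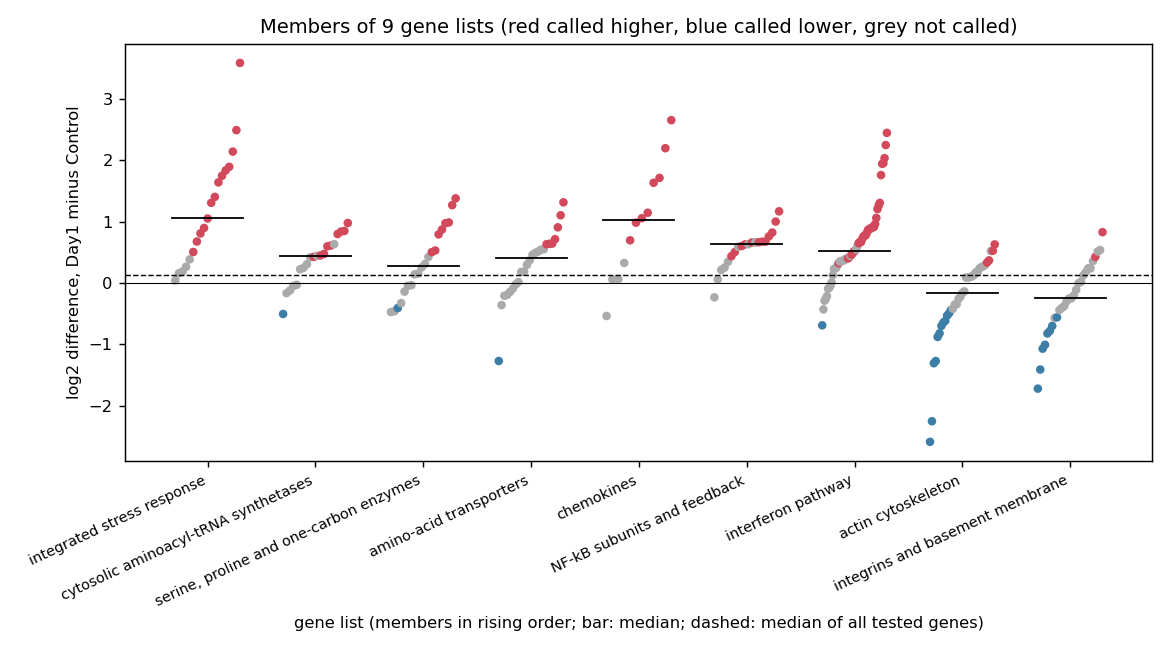
Log2 difference, Day1 minus Control (y axis), of every tested member of 9 gene lists (x axis), with red for called higher, blue for called lower, grey for not called, a bar at the list's median and a dashed line at the median of all genes, 0.12. The stress-response and chemokine medians lie at 1.05 and 1.02, those of the actin and basement membrane lists at -0.16 and -0.25.

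Among keratins and other intermediate filaments 2 of 17 were higher and 1 lower (2 and 4 with the MT- genes removed). Intermediate filament calls were 2, 1, 3 and 2 higher and 0, 0, 2 and 0 lower with libraries left out. VIM, the mesenchymal filament vimentin, rose from 1.66 and 1.84 to 11 and 7.79 TPM (1.90 ± 0.17, adjusted p = 0.000234), a small amount beside KRT8. KRT80 was at 88.4 and 84.7 TPM in Control and 144 and 119 TPM on Day1, lost without Control 2, and KRT17 at 55.2 and 48.2 TPM in Control and 30.9 and 35.7 TPM on Day1, lost on leaving out any of the 4. Cell-junction genes were higher in 10 of 37 and lower in 4 (5 and 7 with the MT- genes removed; 3, 6, 6 and 12 higher with libraries left out). As deposited, the 4 tight-junction and 4 desmosome calls were all higher, and adherens-junction calls were 2 higher and 3 lower. With the MT- genes removed, tight-junction calls were 2 higher and 1 lower. On that scale desmosome calls were 3 higher and 1 lower, and adherens-junction calls 0 higher and 3 lower. CLDN4, a tight-junction claudin, rose from 75.7 and 86 to 164 and 189.9 TPM (1.12 ± 0.11, adjusted p = 0.000279), OCLN, occludin, from 33.3 and 31.1 to 74.4 and 54.3 TPM (0.96 ± 0.15) and the desmosomal protein PERP from 54.5 and 63.4 to 94.4 and 106 TPM (0.76 ± 0.10). NECTIN1, an adherens-junction receptor, was at 14.3 and 16.1 TPM in Control and 8.13 and 9.8 TPM on Day1, lost without Control 2 or Day1 1. The ovarian marker list had 3 of 19 higher and 1 lower, beside 14.4% and 6.28% of all genes (2 and 4 with the MT- genes removed). Ovarian marker calls were 2, 3, 5 and 2 higher and 1, 0, 1 and 3 lower with libraries left out. WFDC2 (HE4, a secreted ovarian tumour marker) went from 523 and 542 to 1017 and 1224 TPM (1.07 ± 0.10), MUC1, a cell-surface mucin, was at 34.4 and 41 TPM in Control and 52.4 and 55.6 TPM on Day1 (lost without Control 1 or either Day1 library), and SOX17, a Müllerian lineage factor, was at 50.8 and 66.8 TPM in Control and 23.2 and 34.6 TPM on Day1, a lower call lost without Control 2.

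In the TGF-beta and BMP pathway 11 of 30 were higher and 5 lower (5 and 7 with the MT- genes removed; 6, 4, 8 and 10 higher with libraries left out). PMEPA1, a target and inhibitor of SMAD signalling, rose from 21 and 28.3 to 59.6 and 68.3 TPM (1.35 ± 0.14, adjusted p = 0.000373). FST, the activin antagonist follistatin, fell from 122 and 131 to 35.1 and 43.7 TPM (-1.66 ± 0.13, adjusted p = 0.000122), whereas its relative FSTL3 rose from 16.4 and 18.2 to 36.2 and 41.4 TPM (1.12 ± 0.12). LTBP1, which stores TGF-beta in the matrix, differed by -1.11 ± 0.12, SKIL, a SMAD corepressor, by 1.16 ± 0.17, and BMPER, a BMP modulator at 10.1 and 13.1 TPM in Control and 3.9 and 3.91 TPM on Day1, lost its call without Control 2. The NOTCH pathway had 3 of 16 higher and 1 lower (1 and 3 with the MT- genes removed). NOTCH list calls were 1, 1, 1 and 2 higher and 1, 0, 0 and 1 lower with libraries left out, and 2 to 5 higher without 1 library of the other groups. HES1, its repressor target, rose from 19.9 and 19.9 to 46 and 33.6 TPM (0.95 ± 0.14), while HEY1 (0.60 ± 0.19) was lost on leaving out any of the 4 libraries, NUMB (0.46 ± 0.11) was lost without Control 1, Control 2 or Day1 1 and the receptor NOTCH1 (-0.56 ± 0.14) was lost without Control 2, Day1 1 or Day1 2.

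Genes of growth arrest were higher in 11 of 38 and lower in 2 (7 and 5 with the MT- genes removed; 7, 7, 8 and 11 higher with libraries left out). CDKN1A, the cyclin-dependent kinase inhibitor p21, stood at 3.45 and 5.69 TPM in Control and 22.4 and 19.5 TPM on Day1 (2.00 ± 0.19, adjusted p = 0.000236). KLF10 and KLF4, transcriptional brakes on growth, went from 36 and 34.7 to 115 and 79.3 TPM (1.41 ± 0.17) and from 8.34 and 8.64 to 25.9 and 16.7 TPM (1.20 ± 0.18), and the antiproliferative BTG1 from 18.3 and 20.5 to 44.2 and 41.1 TPM (1.10 ± 0.12). Translation factors were higher in 15 of 34 and lower in 0 as deposited, but 3 were higher and 1 lower with the MT- genes removed, and 4, 3, 6 and 13 were higher with libraries left out. EIF1, which guards start-codon choice, rose from 308 and 304 to 569.6 and 518 TPM (0.83 ± 0.09) and EIF4EBP1, an inhibitor of cap-dependent initiation, from 161 and 154 to 271 and 248 TPM (0.72 ± 0.09); EIF2B2, part of the exchange factor for eIF2, differed by 0.70 ± 0.12 and EIF2S2 by 0.70 ± 0.16, the latter lost without Control 1, Control 2 or Day1 1. Of ribosome biogenesis factors 3 of 30 were higher and 2 lower (0 and 5 with the MT- genes removed). Ribosome biogenesis calls were 0, 0, 0 and 4 higher and 1, 0, 1 and 2 lower with libraries left out. MYBBP1A was at 45.6 and 51.4 TPM in Control and 29.2 and 24.2 TPM on Day1 (lower, lost without Control 2), RRN3 and GAR1 differed by 0.51 ± 0.13 and 0.50 ± 0.13, and BOP1 by -0.48 ± 0.12, all 3 lost without Control 1, Control 2 or Day1 1. Of 46 proteasome genes 7 were higher and 0 lower, beside 14.4% and 6.28% of all genes (2 and 0 with the MT- genes removed). Proteasome calls were 2, 2, 4 and 4 higher and 0 lower each time with libraries left out, and 5 to 23 higher without 1 library of the other groups. NFE2L2, which encodes NRF2, went from 70 and 69.6 to 126 and 102 TPM (0.69 ± 0.12), PSMD10 differed by 0.55 ± 0.11 (lost without Control 1) and PSMA6 by 0.38 ± 0.10 (lost on leaving out any of the 4).

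Metabolic and transport lists held single strong members. TXNIP, a glucose-responsive inhibitor of thioredoxin and glucose uptake, rose from 4.64 and 6.57 to 20.9 and 15.3 TPM (1.53 ± 0.20, adjusted p = 0.00123) and was as high on Day3, at 18.1 and 19 TPM; 5 of 18 genes of its list were higher and 2 lower (2 and 3 with the MT- genes removed). Glucose list calls were 1, 2, 2 and 5 higher and 0, 0, 0 and 2 lower with libraries left out, and 3 to 5 higher without 1 library of the other groups. SLC16A3, a lactate exporter, was at 17.7 and 23.1 TPM in Control and 34.3 and 41.1 TPM on Day1 (lost without Control 1), ARRDC4, a relative of TXNIP, at 1.65 and 2.13 TPM in Control and 5.12 and 2.95 TPM on Day1, and PFKFB3, a glycolytic regulator, at 14.8 and 18.2 TPM in Control and 8.77 and 11 TPM on Day1, both lost without Control 1, Control 2 or Day1 1. LCN2, the iron-carrier binding protein lipocalin-2, rose from 17.2 and 16 to 84 and 58.3 TPM (2.01 ± 0.18, adjusted p = 0.000195), and Day3 was at 61.1 and 76.4 TPM. The iron-storage chains FTH1 and FTL went from 8559 and 9085 to 13860 and 12710 TPM (0.59 ± 0.10) and from 414 and 422 to 619 and 645 TPM (0.60 ± 0.08). In their list of zinc and iron genes 6 of 23 were higher and 4 lower (4 and 4 with the MT- genes removed). Zinc and iron calls were 3, 3, 3 and 9 higher and 0, 1, 1 and 3 lower with libraries left out. The metallothioneins MT1F, MT1X and MT2A, close paralogs that bind zinc, were lower, at differences of -0.95 ± 0.20, -0.74 ± 0.17 and -0.72 ± 0.19, with MT1F and MT2A lost without Control 1, Control 2 or Day1 1 and MT1X lost without Control 1 or Day1 1; SLC39A10, a zinc importer, differed by 0.71 ± 0.15, lost without Control 1, Control 2 or Day1 1. Cholesterol genes had 4 of 29 higher and 2 lower, beside 14.4% and 6.28% of all genes (0 and 5 with the MT- genes removed). Cholesterol list calls were 0, 1, 0 and 3 higher and 2, 1, 1 and 2 lower with libraries left out, and 2 to 7 higher without 1 library of the other groups. LSS, the lanosterol synthase, differed by -0.50 ± 0.11, lost without Control 2 or Day1 1, and SREBF2 at 0.47 ± 0.12 and MYLIP at 0.45 ± 0.12 lost their calls without Control 1, Control 2 or Day1 1. Osmotic and volume genes were higher in 1 of 17 and lower in 1 (0 and 2 with the MT- genes removed). Osmotic list calls were 1, 0, 0 and 3 higher and 0, 0, 0 and 2 lower with libraries left out. AKR1B1, the osmolyte enzyme aldose reductase, was lower (-0.44 ± 0.10, lost without Control 1, Control 2 or Day1 1). In membrane trafficking 3 of 22 were higher and 1 lower, again beside 14.4% and 6.28% of all genes (1 and 2 with the MT- genes removed). Trafficking list calls were 1, 0, 0 and 5 higher and 0 lower each time with libraries left out, and 2 to 10 higher without 1 library of the other groups. The genes called were CREB3L1 (1.11 ± 0.22, lost without Control 2 or Day1 1), COPB1 (0.47 ± 0.11) and ARCN1 (0.37 ± 0.11), both lost without Control 1, Control 2 or Day1 1, and CREB3L2 (-0.54 ± 0.14, lost on leaving out any of the 4 libraries).

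**Figure D5:**
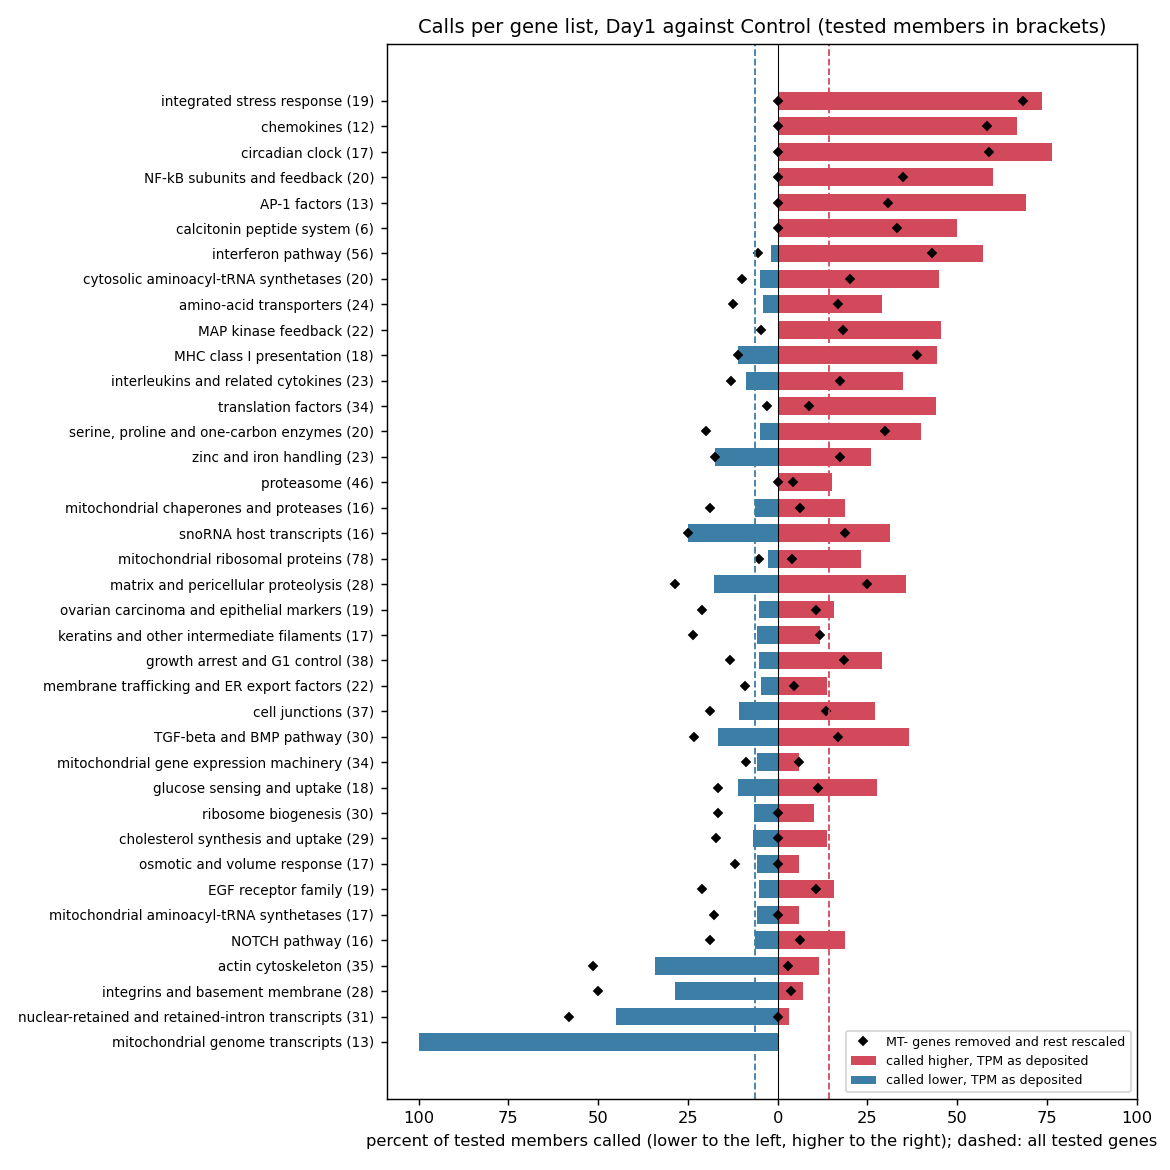
Percent of tested members called higher (red, right) and lower (blue, left) in each gene list (y axis, tested members in brackets, sorted by median difference), with diamonds for the fit without MT- genes and dashed lines for all tested genes, 14.4% higher and 6.28% lower. Stress-response, chemokine and clock lists keep most of their higher calls without the MT- genes, whereas translation factors and mitochondrial ribosomal proteins lose most.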

How the data were processed

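Expression was read from the TPM values that the authors deposited for 10 OVCAR-3 libraries; per the submitters' processing notes, Trimmomatic, STAR and Cufflinks were used with GRCh38, and the sources used here give neither versions nor settings. Such values keep no sequencing depth, so depth is unknown and no counting error is given. Of 58662 lines, 349 without a gene identifier were left out and repeated identifiers summed, which gave 58222 genes, 99.55% of them in GENCODE release 29. Genes that reached 1 TPM in 2 or more libraries, 15167 in all, were analysed as log2(TPM + 1), a scale that understates the change of low genes. limma 3.58.1 (R 4.3.3) fitted all 10 libraries in 1 model with 5 residual degrees of freedom and a mean-variance trend, and p-values were adjusted by Benjamini-Hochberg over all genes. The 2 replicates of each group are biological replicates, per the series' design text. Their numbers were not taken as pairs: same-numbered Control and Day1 libraries had deviations correlated at 0.085.

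The comparison and the gene lists were chosen with earlier results of these data known. Named genes were the 12 largest rises and 12 largest falls called alike with and without MT- genes, with a mean of at least 5 TPM in either group and groups that did not overlap, leaving out pseudogenes, small RNAs and clone-named genes. Up to 4 called members of each list with the largest change, genes crossing from under 1 to at least 5 TPM or back, and a few genes fixed by name (among them IL6 and MYC) were added; some genes so named are not reported here. Alternatives were another pseudocount, other filters and scalings, other models and leaving out each library. Promoter sequences are RefSeq's (GRCh38.p14). Python 3.11.15 with pandas 2.3.3, NumPy 2.4.6 and Matplotlib 3.10.9 was used.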

Additional observations from a re-analysis of the deposited data

Results flagged for a closer look

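For 11 of 24 genes with the largest change, the effect at 24 h differed from that at 3 days. The test was of Day1 minus Day3 in the same limma model, and it called 2.35% of all genes. The 24 genes were picked on the same Day1 libraries, so nothing is read from how many were called. Each value is a log2 difference with its adjusted p. CALCB (beta-CGRP) and CXCL8 (interleukin-8) differed most, at 2.65 (adjusted p = 4.05e-05) and 2.80 (adjusted p = 0.00298). Among stress-response genes ATF3 differed by 1.59 (adjusted p = 0.0074), DDIT3 by 1.75 (adjusted p = 0.00355) and DDIT4 by 1.25 (adjusted p = 0.00697). The chemokine CXCL2 differed by 1.70 (adjusted p = 0.0142), the AP-1 factor FOSL1 by 1.77 (adjusted p = 0.0126), the lysosomal LAMP3 by 1.77 (adjusted p = 0.0222), the protease inhibitor SERPINE2 by 1.56 (adjusted p = 0.0162) and the clock repressor NR1D1 by 1.24 (adjusted p = 0.0233). PABPC1L, among the falls, was lower on Day1 than on Day3, at -0.86 (adjusted p = 0.0233).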

How the results depend on the processing

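The 3132 calls (2180 higher, 952 lower, 461 at least 2-fold) depended on scale and on single libraries. With the MT- genes removed 730 were higher and 1800 lower, with only nuclear protein-coding genes rescaled 1045 and 2008, and with median-of-ratios scaling 1683 were lower. Without the filter 1433 were higher, and a pseudocount of 0.1 gave 728 at least 2-fold changes. Fitting the 2 groups alone left 1894 calls, 1283 higher and 611 lower, with fewer residual degrees of freedom. Leaving out each of the 10 libraries gave 965 (without Control 2) to 4106 (without Treated 2) calls, 582 to 2921 higher, 319 to 1185 lower and 383 to 636 at least 2-fold; a lone sample is then assumed to vary like the other groups. For these differences the cause was not tested. With the replicate number as a block, 3199 genes were called, 2244 higher and 955 lower, 466 at least 2-fold; the numbers are not known to pair the samples. TPM keep no depth, so what depth limits could not be assessed.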

Other observations

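Calls differed by kind of transcript. Of 12957 protein-coding genes 15.7% were higher and 5.86% lower, whereas of 69 sense-intronic transcripts 1 was higher and 11 lower, and of 187 transcribed unprocessed pseudogenes 6 were higher and 31 lower. Among 514 lincRNAs 27 were higher and 47 lower. Processed pseudogenes, which can share reads with their parent genes, were higher in 52 of 347 and lower in 6. With the MT- genes removed the protein-coding balance turned, to 658 higher and 1556 lower, while sense-intronic transcripts had 0 higher and 13 lower, transcribed unprocessed pseudogenes 4 and 39, lincRNAs 15 and 59, and processed pseudogenes 29 and 6.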
